A study of Mus musculus with 4 samples.

Results

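The genes described here are 49 members of the TGF-beta, BMP and SMAD pathway, chosen by name from the 56350 genes of the deposited counts table, and each name matched exactly 1 row. They comprise 12 ligands, 4 latent TGF-beta binding proteins, 10 receptors and coreceptors, 5 signalling SMADs, 8 intracellular inhibitors, 6 extracellular or membrane antagonists and 4 target genes. RNA was measured in EO771, a mouse mammary carcinoma cell line of C57BL/6 origin, grown as a culture with serum. One group of 2 libraries is labelled BML-210, a synthetic histone deacetylase inhibitor given at 1.0 µM for 48 h. The other group of 2 libraries is labelled untreated, and WT in the sample titles, although the treatment protocol names a vehicle control. The comparison asks which genes differ in level between cells cultured with the inhibitor and cells cultured without it. Nothing in the labels says that the 2 libraries of a group came from separate cultures, so p-values measure only the spread between these libraries, which may be technical. Beyond counting noise, the fit put the spread shared across genes at a coefficient of variation of 2.49%. Adjusted p-values rest on this small spread, and its source was not tested. All fold changes are BML-210 over untreated and rest on the group labels. The library codes carry the letter V for the libraries labelled BML-210 and D for those labelled untreated, and the labels do not say what these letters stand for. If they stood for vehicle and drug, the group labels would be exchanged and every direction given here would be reversed.

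In this pathway a secreted ligand dimer brings type I and type II receptor kinases together, and the type I kinase then phosphorylates receptor SMADs, which enter the nucleus with Smad4. TGF-beta and activin ligands act mainly through Smad2 and Smad3, and BMP ligands mainly through Smad1 and Smad5. The response is limited outside the cell by ligand traps such as follistatin, at the membrane by decoy receptors, and inside the cell by Smad6, Smad7, SMURF ubiquitin ligases and the SKI and TGIF corepressors. In mammary carcinoma cells the pathway is known for restraining growth and for promoting a mesenchymal state.

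Total gene counts were 13167893 and 13961743 in the BML-210 libraries and 16534667 and 13855061 in the untreated libraries. Levels are given as normalised read counts scaled by library size (CPM), in which a count of 3 equals 0.183 to 0.227 CPM depending on the library. In bulk RNA of this kind, fewer cells that express a gene and less RNA of that gene per cell cannot be told apart. Of 12 epithelial markers, 2 had enough counts to be tested. Krt8, a keratin gene, had 374 and 463 counts in BML-210 libraries against 716 and 675 in untreated libraries and fell (edgeR adjusted p = 3.50e-09). Cdh1, the epithelial cadherin gene, had 13 and 11 counts in BML-210 libraries against 16 and 12 in untreated libraries and did not pass (edgeR adjusted p = 0.915). Epcam, an epithelial adhesion gene, was not tested and had 1 to 3 counts in every library. Of 9 fibroblast markers 4 were tested, of which Pdgfra fell (log2 fold change -0.68), Pdgfrb (0.57) and Col3a1 (1.55) rose and Col1a1 (-0.05) did not pass. Summed over each marker list, epithelial genes had 30.1 and 34.5 CPM in BML-210 libraries against 46.2 and 51.5 CPM in untreated libraries. Krt8 alone made up most of this sum (28.3 and 33.0 CPM in BML-210 against 43.6 and 49.2 CPM in untreated libraries). The fibroblast markers summed to 202 and 207 CPM in BML-210 libraries against 231 and 240 CPM in untreated libraries, with Lum and Thy1 at 0 in all libraries. Most of that sum came from Pdgfra (94.3 and 101 CPM in BML-210 against 155 and 157 CPM in untreated libraries) and Pdgfrb (81.4 and 81.1 CPM against 54.2 and 55.6 CPM), which went opposite ways. The 12 macrophage markers summed to 5.37 and 5.49 CPM in BML-210 libraries against 9.74 and 7.65 CPM in untreated libraries, with C1qc at 0 in all. Of the 4 macrophage markers tested, only Adgre1 was called (1 and 4 counts in BML-210 libraries against 33 and 13 in untreated libraries, edgeR adjusted p = 3.83e-05). Adgre1 entered the test only through the untreated libraries. The 7 endothelial markers summed to 10.9 and 8.92 CPM in BML-210 libraries against 8.28 and 7.36 CPM in untreated libraries (Emcn at 0 in all), and the 8 lymphocyte markers to 0.642 to 0.757 CPM in BML-210 libraries and 0.609 to 0.656 CPM in untreated libraries (Nkg7 at 0 in all). The part of these marker differences in the results was not tested.

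The 5 promoter sequences that follow belong to members on which the results turn: Tgfbr1, the TGF-beta type I receptor gene, which fell, Bmpr1a, a BMP type I receptor gene, which rose, and the target genes Id2, which fell, and Id3 and Tgfbi, which rose. Each runs from 250 bases before to 50 bases after the start that RefSeq gives (GRCm38.p6, the same assembly as mm10), on the strand of the gene. Capitals mark SMAD-type motifs found on either strand: CAGAC and its palindromic relative GTCTAGAC, bound by SMAD proteins, and the GC-rich forms GGCGCC and GGAGCC.
Tgfbr1: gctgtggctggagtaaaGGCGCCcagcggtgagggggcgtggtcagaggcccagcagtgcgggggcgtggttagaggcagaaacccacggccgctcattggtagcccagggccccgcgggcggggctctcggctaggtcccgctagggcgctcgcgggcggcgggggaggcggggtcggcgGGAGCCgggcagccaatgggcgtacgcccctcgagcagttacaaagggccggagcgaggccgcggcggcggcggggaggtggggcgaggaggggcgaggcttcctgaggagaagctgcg
Bmpr1a: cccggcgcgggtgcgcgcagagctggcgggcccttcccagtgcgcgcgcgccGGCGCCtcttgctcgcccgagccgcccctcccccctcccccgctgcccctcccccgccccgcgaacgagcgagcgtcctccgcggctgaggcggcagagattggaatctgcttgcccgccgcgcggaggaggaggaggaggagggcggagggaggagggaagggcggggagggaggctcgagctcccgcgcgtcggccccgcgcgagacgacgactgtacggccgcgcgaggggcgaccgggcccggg
Id2: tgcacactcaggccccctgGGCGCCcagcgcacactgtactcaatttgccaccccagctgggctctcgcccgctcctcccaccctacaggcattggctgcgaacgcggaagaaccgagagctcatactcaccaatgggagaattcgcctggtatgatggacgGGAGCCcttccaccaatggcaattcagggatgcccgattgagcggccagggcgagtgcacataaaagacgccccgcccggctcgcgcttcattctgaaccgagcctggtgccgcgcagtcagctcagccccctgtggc
Id3: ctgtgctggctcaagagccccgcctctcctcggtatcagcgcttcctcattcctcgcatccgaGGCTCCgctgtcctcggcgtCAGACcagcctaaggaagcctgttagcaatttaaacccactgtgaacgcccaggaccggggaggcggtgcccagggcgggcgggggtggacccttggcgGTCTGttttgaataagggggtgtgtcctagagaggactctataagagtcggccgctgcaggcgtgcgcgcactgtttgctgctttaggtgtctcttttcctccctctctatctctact
Tgfbi: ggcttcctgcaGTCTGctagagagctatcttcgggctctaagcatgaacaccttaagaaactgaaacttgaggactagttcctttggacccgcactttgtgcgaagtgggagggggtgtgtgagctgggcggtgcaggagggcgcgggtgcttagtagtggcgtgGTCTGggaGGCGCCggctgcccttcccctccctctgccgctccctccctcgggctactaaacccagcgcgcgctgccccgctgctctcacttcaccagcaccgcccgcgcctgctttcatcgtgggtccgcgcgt
The windows are chr4:47352972-47353271 (plus strand) for Tgfbr1, chr14:34502497-34502796 (minus strand) for Bmpr1a, chr12:25096043-25096342 (minus strand) for Id2, chr4:136143572-136143871 (plus strand) for Id3 and chr13:56609336-56609635 (plus strand) for Tgfbi. RefSeq lists 2 starts for Tgfbr1, and the first listed is shown. For Bmpr1a, Id2 and Id3 the whole window lies inside the deposited span of the gene. That span reaches farther upstream, to 34503341 for Bmpr1a, 25097140 for Id2 and 136143497 for Id3. The GGCGCC form lies 233 bases before the start of Tgfbr1, 198 before that of Bmpr1a, 231 before that of Id2 and 77 before that of Tgfbi. Id3 holds no GGCGCC in this window and has CAGAC 167 and 68 bases before the start, while Tgfbi has CAGAC 239 and 85 bases before it. GGAGCC lies 69 bases before the start of Tgfbr1, 88 before that of Id2 and 187 before that of Id3. Of 27025 RefSeq promoters of this length, 49.7% hold CAGAC, 30.5% GGAGCC, 12% GGCGCC and 0.211% GTCTAGAC, and a match describes letters only, not a site in use. A promoter was found in the table for 37 of the 49 members, under 80%, so a comparison of motif shares over the members is void.

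Of the 49 members, 41 had enough counts to be tested, and 28 of these were called (edgeR, adjusted p under 0.05): 15 were higher and 13 lower in the BML-210 libraries. Over all 14455 genes tested, 46.4% passed (22.9% higher and 23.5% lower), against 68.3% of the members tested. Abundant genes pass more often: among genes with a mean of at least 10 CPM, 58.9% passed, against 26 of 36 members (72.2%). The median size of change was about the same in the members as in all genes tested, as given below. In all, 4 of 41 (9.76%) were called with a change of 1.5-fold or more, namely Fst, Gdf11 and Id2 lower and Tgfbi higher, beside 15.1% of all genes tested (6.46% higher and 8.61% lower). Fst passed the filter on low counts only through the untreated libraries, where it is higher, so its call is a description of that gene alone. The median log2 fold change of the members tested was 0.04 and the median absolute log2 fold change 0.24, beside -0.0025 and 0.25 over all genes tested. The libraries of the 2 groups did not overlap in 35 of the 41 members tested (85.4%), beside 71.3% of all genes tested. With 2 libraries a group, such a gap is thus common and says little about a single gene. Members that passed the filter on low counts are not all members, and no test of the list was made. With DESeq2 in place of edgeR the calls of 10 members ended, namely Ltbp3, Bmpr2, Acvr2a, Acvr2b, Smad1, Smad4, Smad7, Tgif2, Id1 and Id3 (adjusted p 0.0530 to 0.245).

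**Figure D1:**
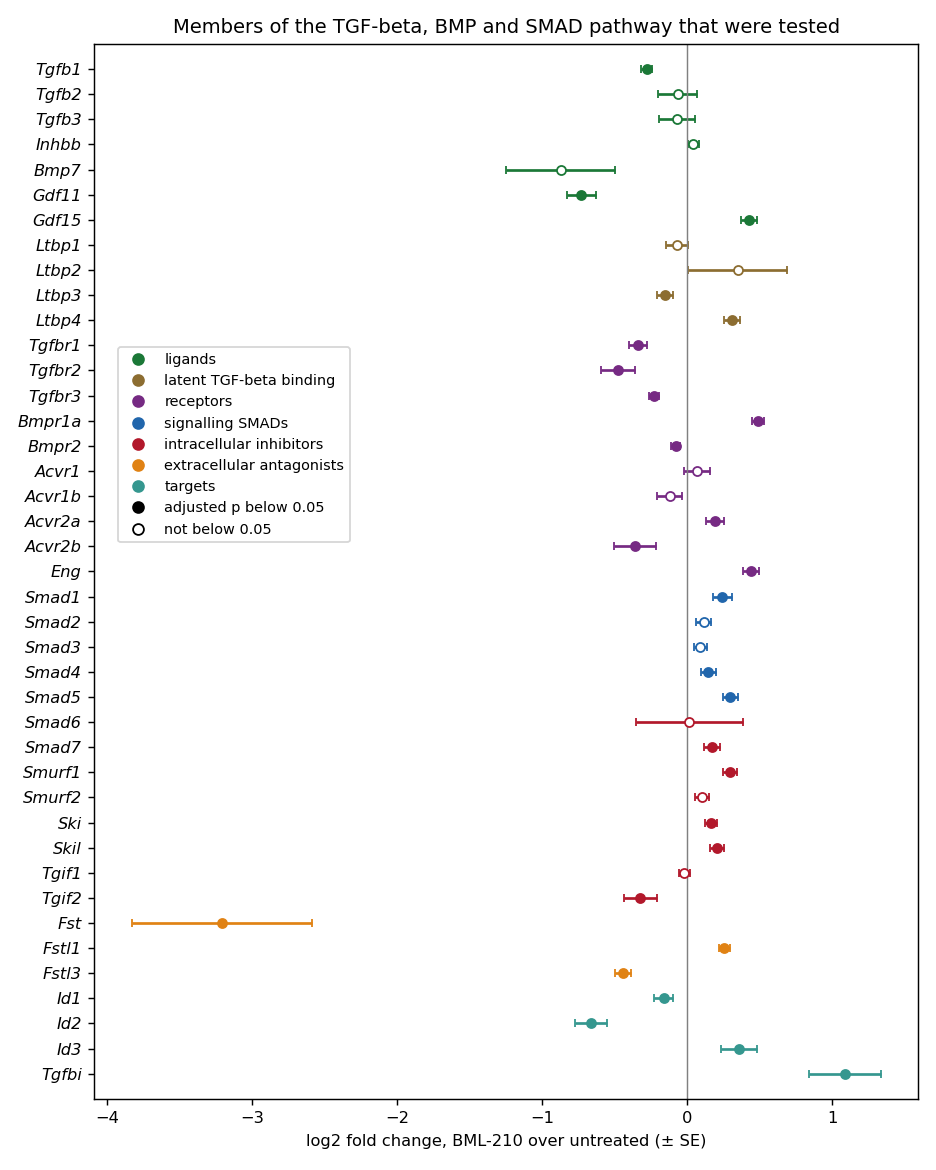
Log2 fold change (BML-210 over untreated, x axis) of the 41 members tested, ordered and coloured by role, with the standard error from the edgeR fit as bars and filled points for an edgeR adjusted p below 0.05. All 5 signalling SMADs lie to the right of 0 and the 3 TGF-beta receptors to the left, and Fst, which entered the test only through the untreated libraries, lies farthest from 0.

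Among the ligands, the RNA of Tgfb1 and Gdf11 fell and that of Gdf15 rose. Tgfb1 (ENSMUSG00000002603.15, chr7:25687002-25705077, mm10), the main TGF-beta ligand of tumour cells, had 165 and 169 CPM in BML-210 libraries against 199 and 207 CPM in untreated libraries. Both BML-210 libraries lay below both untreated ones (log2 fold change -0.28, standard error 0.04, given as ± below, edgeR adjusted p = 1.34e-08). Gdf11 (ENSMUSG00000025352.6, chr10:128882295-128891718), which encodes an activin-type ligand close to myostatin, had 19.1 and 15.6 CPM in BML-210 libraries against 28.9 and 28.3 CPM in untreated libraries, again without overlap (log2 fold change -0.73 ± 0.10, edgeR adjusted p = 9.41e-09). Gdf15 (ENSMUSG00000038508.7, chr8:70629393-70632456), a stress-induced distant relative of the family that signals through GFRAL rather than through SMAD receptors, had 74.5 and 75.2 CPM in BML-210 libraries against 55.4 and 55.9 CPM in untreated libraries (log2 fold change 0.43 ± 0.06, edgeR adjusted p = 4.22e-09).

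Inhbb, the activin B and inhibin B subunit gene, had the highest level of the ligands per length, 51.8 CPM per kilobase of exon in BML-210 and 50.3 in untreated libraries on average. In CPM it had 217 and 223 in BML-210 libraries against 202 and 226 in untreated libraries. These ranges overlap, and the gene did not pass (log2 fold change 0.04 ± 0.04, edgeR adjusted p = 0.389), although it passed without untreated replicate 2 (0.12, edgeR adjusted p = 0.00852) and had a value of -0.04 without untreated replicate 1, in a range of adjusted p of 0.00852 to 0.795 over 14 alternatives. Inhba, the activin A subunit gene, had 2 and 0 counts in BML-210 libraries against 5 and 5 in untreated libraries, and Inha, the inhibin alpha subunit gene, had 1 count in each group. The cells thus held RNA for activin B almost alone among the activins. Of the other TGF-beta ligands, Tgfb2 had 10.4 to 12.3 CPM in BML-210 libraries against 11.3 to 12.4 CPM in untreated libraries. Tgfb3 had 13.6 to 13.9 CPM in BML-210 libraries against 14.2 to 14.8 CPM in untreated libraries, and neither gene passed (edgeR adjusted p = 0.730 and 0.675).

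BMP ligands were close to absent. Bmp2 had no count in any library. Bmp4 had 1 and 4 counts in BML-210 libraries and 0 and 0 in untreated libraries, and Bmp6 had 2 and 5 in BML-210 libraries against 2 and 2 in untreated libraries. Bmp7 had 23 and 8 counts in BML-210 libraries against 31 and 32 in untreated libraries, 1.74 and 0.571 CPM in BML-210 libraries against 1.89 and 2.33 CPM in untreated libraries. The BML-210 libraries lay below the untreated ones but far apart from each other, and the gene did not pass (log2 fold change -0.87 ± 0.38, edgeR adjusted p = 0.0519). BML-210 replicate 2 decides this value: the log2 fold change was -0.27 without it (edgeR adjusted p = 0.657) and -1.86 without BML-210 replicate 1 (0.00263). These are the extremes over 14 alternatives, and it passed in 5 of them. The other passes were with the replicate number as a block (edgeR adjusted p = 0.0398), with upper-quartile factors (0.0432), with a minimum mean of 1 CPM (0.0444) and with limma-voom (0.0346). The ratio of summed and scaled Bmp7 counts was 0.545 (exact binomial 95% interval 0.343 to 0.851, counting error only, without the spread between libraries). For Bmp6 that ratio was 1.94 with an interval of 0.493 to 9.03, so no difference was detectable at this depth. Of the exonic length of Bmp6, 5.74% overlaps Txndc5 on the opposite strand, and the counting setting for strand is unknown here. Txndc5 had 8592 counts over the 4 libraries against 11 for Bmp6.

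**Figure D2:**
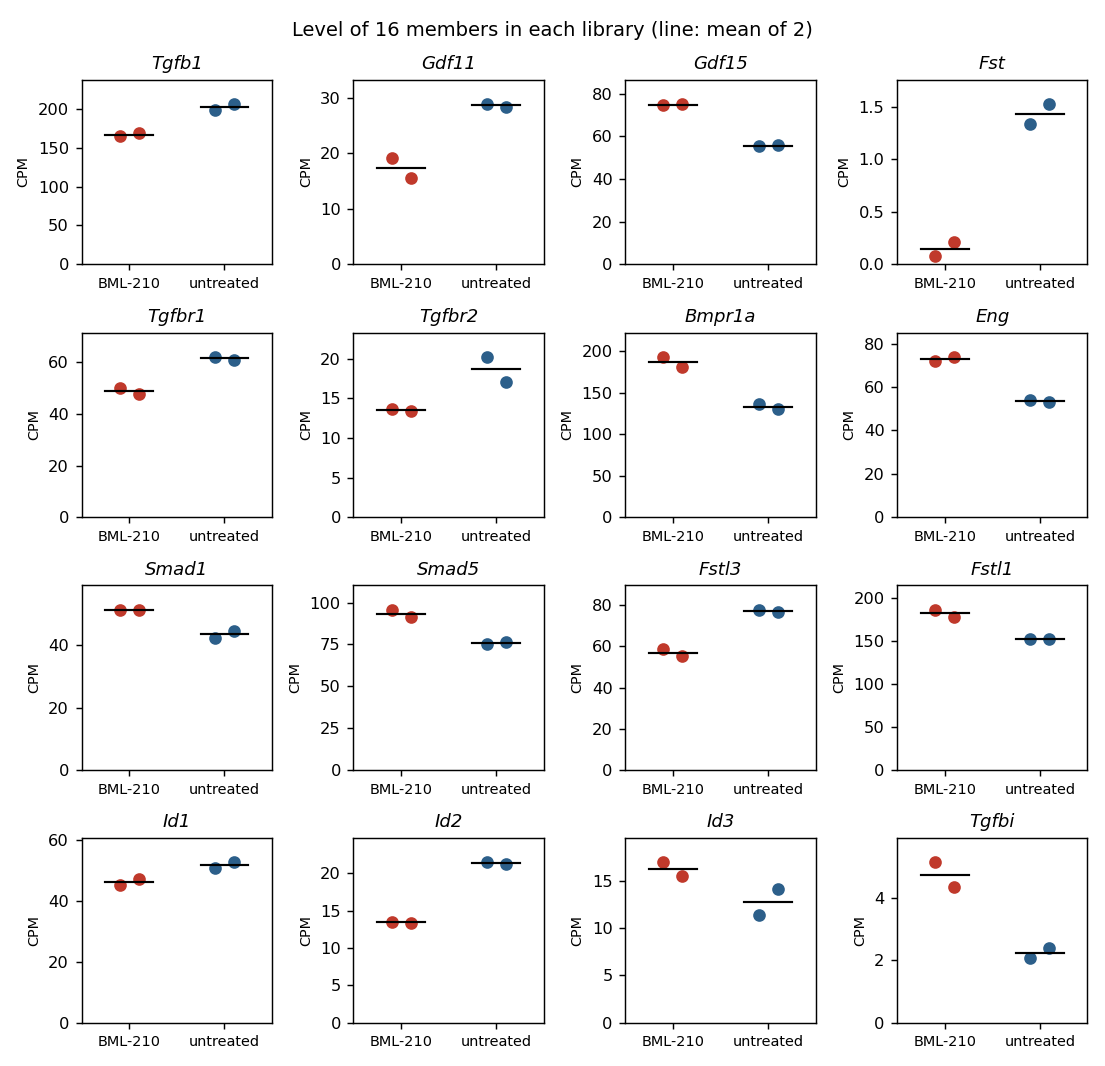
CPM (y axis, from 0) of 16 members in each library, BML-210 left and untreated right, with a line at the mean of 2 libraries. The groups do not overlap in any of the 16 panels, as in 71.3% of all genes tested, and Id3 and Tgfbr2 show the widest gap between the untreated libraries relative to the difference between groups.

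The latent TGF-beta binding proteins tie the inactive ligand to the matrix. Of the 4, 1 rose and 1 fell (50% called, near the 46.4% of all genes tested). Ltbp4 had 75.3 and 81.3 CPM in BML-210 libraries against 62.3 and 64.2 CPM in untreated libraries, with no overlap (log2 fold change 0.31 ± 0.06, edgeR adjusted p = 4.36e-06). Ltbp3 had 79.2 and 90.0 CPM in BML-210 libraries against 92.2 and 96.1 CPM in untreated libraries (log2 fold change -0.15 ± 0.05, edgeR adjusted p = 0.0150). BML-210 replicate 2 lay close to untreated replicate 1 for this gene, and the call ended without BML-210 replicate 1 (edgeR adjusted p = 0.454, log2 fold change -0.07) and without untreated replicate 2 (0.0930), in a range of 0.000976 to 0.454 over 14 alternatives. Ltbp1 (35.5 to 35.8 CPM in BML-210 and 37.3 to 37.6 CPM in untreated libraries) and Ltbp2 (1.74 to 2.07 CPM in BML-210 and 1.22 to 1.82 CPM in untreated libraries) did not pass.

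Of the 10 receptors and coreceptors, all tested, the TGF-beta receptor genes fell and Bmpr1a and Eng rose. Tgfbr1 (ENSMUSG00000007613.15, chr4:47353222-47414931), the type I TGF-beta receptor, had 50.1 and 47.7 CPM in BML-210 libraries against 62.3 and 61.1 CPM in untreated libraries (log2 fold change -0.34 ± 0.06, edgeR adjusted p = 5.50e-06). Tgfbr2 (ENSMUSG00000032440.13, chr9:116084293-116175360), the type II receptor that binds the ligand first, had 13.6 and 13.3 CPM in BML-210 libraries against 20.3 and 17.04 CPM in untreated libraries (-0.48 ± 0.12, edgeR adjusted p = 0.000554). Tgfbr3, betaglycan, a coreceptor that presents TGF-beta to Tgfbr2, had 274 and 271 CPM in BML-210 libraries against 313 and 324 CPM in untreated libraries (-0.23 ± 0.03, edgeR adjusted p = 5.08e-08). In all 3 genes both BML-210 libraries lay below both untreated ones, and groups apart in either direction were found for 71.3% of all genes tested. The promoter of Tgfbr1 is the first of the sequences printed above.

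Bmpr1a (ENSMUSG00000021796.15, chr14:34410734-34503341), a BMP type I receptor, had 193 and 181 CPM in BML-210 libraries against 136 and 130 CPM in untreated libraries. Its log2 fold change of 0.49 ± 0.04 had the smallest adjusted p of all members in edgeR's test (2.00e-15). Eng (ENSMUSG00000026814.16, chr2:32646595-32682669), endoglin, a coreceptor best known from endothelial cells, had 72.1 and 74.1 CPM in BML-210 libraries against 54.3 and 53.3 CPM in untreated libraries (0.44 ± 0.06, edgeR adjusted p = 2.70e-09). The summed level of the 7 endothelial markers given above was also higher in BML-210 libraries. Of its 3 members tested, the VEGF receptor gene Flt1 was called higher (31 and 19 counts in BML-210 libraries against 12 and 15 in untreated libraries, edgeR adjusted p = 0.0280), while Pecam1 and Kdr did not pass. Cdh5, which encodes the cadherin of endothelial cells, had 6 and 6 counts in BML-210 libraries against 17 and 7 in untreated libraries, and Tek had 0 counts in each BML-210 library against 1 in each untreated library. The part of these markers in the rise of Eng was not tested. Bmpr1a made up 60.8% and 59.6% of the summed CPM per kilobase of the 4 type I receptors listed (Bmpr1a, Acvr1, Acvr1b and Tgfbr1) in BML-210 libraries, against 50.01% and 48.1% in untreated libraries. No test was run on these shares.

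The calls of the activin receptors and of the BMP type II receptor were less firm. Acvr2a, an activin type II receptor, had 54.6 and 55.7 CPM in BML-210 libraries against 46.9 and 49.9 CPM in untreated libraries (log2 fold change 0.19 ± 0.06, edgeR adjusted p = 0.00979). Acvr2b, its close relative, had 9.46 and 8.42 CPM in BML-210 libraries against 12.4 and 10.5 CPM in untreated libraries (-0.36 ± 0.14, edgeR adjusted p = 0.0349). The 2 activin type II receptor genes thus went opposite ways, each without overlap between groups, as in 71.3% of all genes tested. Bmpr2, the BMP type II receptor and the member with the most counts, had 417 and 405 CPM in BML-210 libraries against 443 and 423 CPM in untreated libraries (-0.08 ± 0.03, edgeR adjusted p = 0.0361). All 3 calls depend on single libraries. That of Acvr2a ended without untreated replicate 1 (edgeR adjusted p = 0.156) or BML-210 replicate 2 (0.0757), in a range of 0.00504 to 0.156 over 14 alternatives. Of the exonic length of Acvr2a, 7.84% overlaps Orc4, which had 10416 counts over the 4 libraries against 2957 for Acvr2a. The call of Acvr2b ended without the same libraries (edgeR adjusted p = 0.314 and 0.218, range 0.0137 to 0.314) and with no filter on low counts (0.0692). That of Bmpr2 ended without untreated replicate 1 (edgeR adjusted p = 0.299), BML-210 replicate 1 (0.0596) or BML-210 replicate 2 (0.326), in a range of 0.00170 to 0.326, and also with library size only (0.107) and with no filter on low counts (0.0996). Acvr1, a BMP and activin type I receptor, had 26.8 and 25.7 CPM in BML-210 libraries against 25.4 and 24.5 CPM in untreated libraries, and Acvr1b, the activin type I receptor, had 28.2 and 29.5 CPM in BML-210 libraries against 29.1 and 33.9 CPM in untreated libraries. Neither passed (edgeR adjusted p = 0.570 and 0.259).

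**Figure D3:**
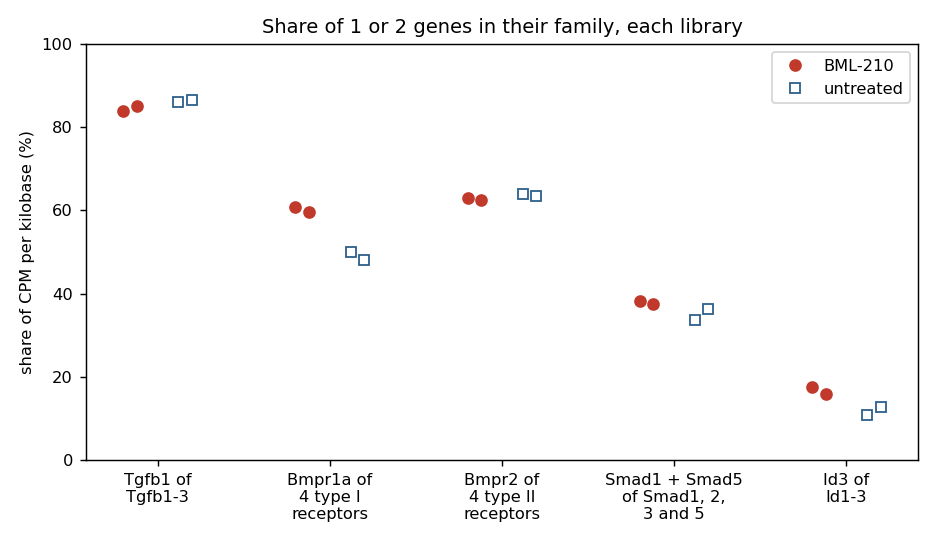
Share (%) of the CPM per kilobase of exon that 1 or 2 genes take in their family, one point per library, BML-210 left of untreated. The Bmpr1a share is 60.8% and 59.6% in BML-210 libraries and 50.01% and 48.1% in untreated libraries, while the Tgfb1 and Bmpr2 shares differ by under 3 percentage points between any 2 libraries.

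All 5 signalling SMADs were above 0 in log2 fold change, and 3 of them rose. That share of calls (60%) is near the 58.9% of all genes with a mean of at least 10 CPM, beside 46.4% of all genes tested. Smad5 (ENSMUSG00000021540.16, chr13:56703010-56742377) and Smad1 (ENSMUSG00000031681.16, chr8:79338395-79399518) carry BMP signals. Smad5 had 95.8 and 91.1 CPM in BML-210 libraries against 75.5 and 76.5 CPM in untreated libraries (0.30 ± 0.05, edgeR adjusted p = 2.07e-06). Smad1 had 51.4 and 51.5 CPM in BML-210 libraries against 42.5 and 44.6 CPM in untreated libraries (0.24 ± 0.07, edgeR adjusted p = 0.00163). Both genes were without overlap between groups, and the call of Smad1 ended only with DESeq2 (adjusted p = 0.0530, in a range of 0.000793 to 0.0530 over 14 alternatives). Smad4, the partner shared by all branches, had 99.5 and 92.0 CPM in BML-210 libraries against 87.8 and 84.9 CPM in untreated libraries (0.15 ± 0.05, edgeR adjusted p = 0.0141). That call ended without untreated replicate 2 (edgeR adjusted p = 0.0871) or BML-210 replicate 1 (0.306) and with upper-quartile factors (0.0507), in a range of 0.00630 to 0.306.

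Smad2 and Smad3, which carry TGF-beta and activin signals, had higher values in BML-210 libraries but did not pass. Smad2 had 96.3 and 101 CPM in BML-210 libraries against 94.8 and 86.9 CPM in untreated libraries (log2 fold change 0.11 ± 0.05, edgeR adjusted p = 0.0598). Smad3 had 129 and 126 CPM in BML-210 libraries against 125 and 115 CPM in untreated libraries (0.09 ± 0.05, edgeR adjusted p = 0.0930). Neither gene overlapped between groups, which held for 71.3% of all genes tested, and both passed without untreated replicate 1 (edgeR adjusted p = 0.0124 for Smad2 and 0.0132 for Smad3). With that library left out, all 5 signalling SMADs were called higher. With library size only they passed too (0.0314 and 0.0480 in edgeR). The adjusted p of Smad2 lay between 0.0124 and 0.498 over 14 alternatives, and that of Smad3 between 0.0132 and 0.663. Whether the fold changes of Smad1 and Smad5 differ from those of Smad2 and Smad3 was not tested. Together Smad1 and Smad5 made up 38.1% and 37.4% of the CPM per kilobase of the receptor SMADs listed in BML-210 libraries, against 33.7% and 36.3% in untreated libraries.

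Of the 8 intracellular inhibitors, 4 rose, 1 fell and 3 did not pass (median log2 fold change 0.13). These calls (62.5%) are near the 58.9% of all genes with a mean of at least 10 CPM, beside 46.4% of all genes tested. Smurf1, a ubiquitin ligase that marks receptors and SMADs for degradation, had 92.7 and 94.7 CPM in BML-210 libraries against 76.3 and 76.3 CPM in untreated libraries (0.30 ± 0.05, edgeR adjusted p = 1.96e-06). Its relative Smurf2 had 95.5 and 98.3 CPM in BML-210 libraries against 88.5 and 92.1 CPM in untreated libraries and did not pass (0.10 ± 0.05, edgeR adjusted p = 0.0809), except with library size only (0.0429, in a range of 0.0429 to 0.387). Ski and Skil encode corepressors that bind SMAD complexes and recruit histone deacetylases. Ski had 158 and 159 CPM in BML-210 libraries against 142 and 141 CPM in untreated libraries (0.16 ± 0.04, edgeR adjusted p = 0.000653), and Skil had 127 and 129 CPM in BML-210 libraries against 116 and 105 CPM in untreated libraries (0.21 ± 0.05, edgeR adjusted p = 0.000178). Smad7, the inhibitory SMAD that TGF-beta itself induces, had 81.7 and 84.0 CPM in BML-210 libraries against 73.6 and 73.6 CPM in untreated libraries (0.17 ± 0.05, edgeR adjusted p = 0.00570). These 4 rises were small, at most 1.23-fold, and none of them overlapped between groups, which held for 71.3% of all genes tested.

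The remaining inhibitors went otherwise. Tgif2, a homeobox corepressor gene, had 15.8 and 14.6 CPM in BML-210 libraries against 16.9 and 21.3 CPM in untreated libraries (-0.32 ± 0.12, edgeR adjusted p = 0.0188). Its relative Tgif1 had 215 and 207 CPM in BML-210 libraries against 214 and 213 CPM in untreated libraries, which overlap (edgeR adjusted p = 0.724). Smad6, the inhibitory SMAD of the BMP branch, had 24 and 16 counts in BML-210 libraries against 26 and 18 in untreated libraries and did not pass (edgeR adjusted p = 0.979). The call of Smad7 ended without BML-210 replicate 2 (edgeR adjusted p = 0.0745, range 0.00258 to 0.0897 over 14 alternatives), and that of Tgif2 without untreated replicate 2 (0.386) or BML-210 replicate 2 (0.129), in a range of 0.00109 to 0.386. Of the exonic length of Tgif2, 61.6% overlaps genes on the opposite strand, and the counting setting for strand is unknown here.

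Among the antagonists, the follistatin family split, with Fst and Fstl3 lower and Fstl1 higher. Fst (ENSMUSG00000021765.9, chr13:114452290-114458951), follistatin, which traps activins, had 1 and 3 counts in BML-210 libraries against 22 and 21 in untreated libraries, or 0.0757 and 0.214 CPM in BML-210 libraries against 1.34 and 1.53 CPM in untreated libraries. The groups were far apart, with a ratio of summed and scaled counts of 0.103 (exact binomial 95% interval 0.0269 to 0.284, counting error only). The fitted log2 fold change was -3.21 ± 0.62 (edgeR adjusted p = 1.74e-05), for a gene that entered the test only through the untreated libraries. With no filter on low counts it was still called. The value was -2.69 without BML-210 replicate 1 and -4.09 without BML-210 replicate 2 (adjusted p 3.43e-06 to 0.00452 over 13 alternatives). The level in BML-210 libraries is at or under that of 3 counts, so its size there is poorly known. Fst lies under the minimum of 1 CPM set for naming genes and was named after its values were seen, as was Bmp7.

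Fstl3 (ENSMUSG00000020325.10, chr10:79777272-79782630), which like follistatin binds activins, had 58.7 and 55.2 CPM in BML-210 libraries against 78.0 and 76.8 CPM in untreated libraries (-0.44 ± 0.06, edgeR adjusted p = 1.61e-09). Its exons overlap Prss57 on the opposite strand over 47.3% of their length, but Prss57 had 28 counts over all 4 libraries against 3884 for Fstl3. Fstl1 (ENSMUSG00000022816.11, chr16:37776873-37836514), a secreted glycoprotein reported to bind BMP ligands, had 187 and 178 CPM in BML-210 libraries against 153 and 153 CPM in untreated libraries (0.26 ± 0.04, edgeR adjusted p = 1.95e-07). Both genes were without overlap between groups and passed in all 14 alternatives. The BMP antagonist genes Nog and Grem1 and the decoy receptor gene Bambi were close to absent: Grem1 had no count, Nog had 1 count in 1 untreated library, and Bambi had 0 and 2 counts in BML-210 libraries against 3 and 1 in untreated libraries. Of the antagonists listed, Fstl1 had the highest level per length in BML-210 libraries, 37.2 CPM per kilobase against 31.1 in untreated libraries. Fstl3 had 23.3 in BML-210 and 31.6 in untreated libraries, so the 2 genes were close to level in untreated libraries.

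**Figure D4:**
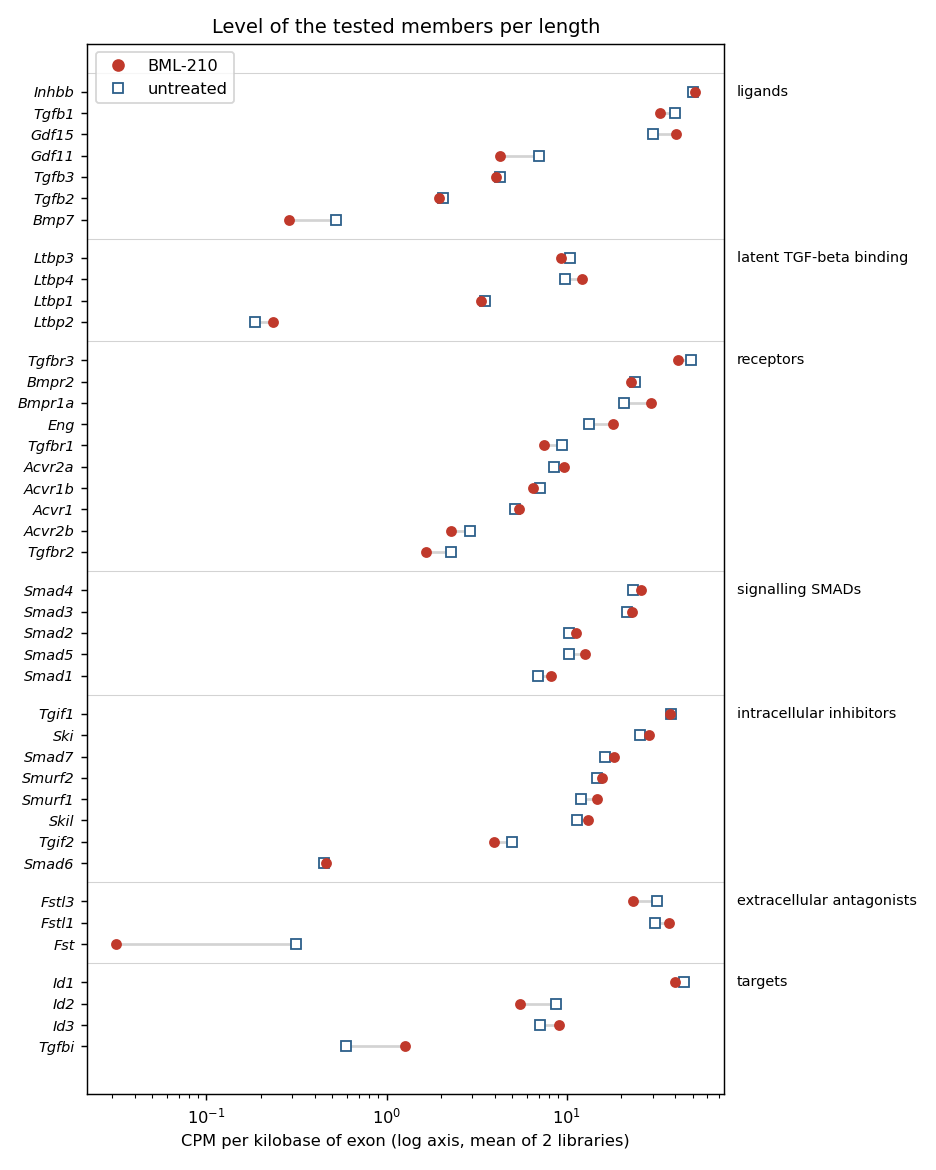
Mean CPM per kilobase of exon (log axis) of the 41 members tested, grouped by role and ordered by the untreated level, with filled circles for BML-210 and open squares for untreated. Inhbb, Tgfb1 and Gdf15 stand above the other ligands, Tgfbr2 is the lowest of the receptors, and Fst has the longest line between the groups.

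The 4 target genes all passed, 2 in each direction, beside 46.4% of all genes tested and 58.9% of those with a mean of at least 10 CPM. Id1, Id2 and Id3 encode inhibitors of helix-loop-helix transcription factors and are classical BMP targets. Id2 (ENSMUSG00000020644.9, chr12:25093799-25097140) had 13.5 and 13.4 CPM in BML-210 libraries against 21.5 and 21.3 CPM in untreated libraries (log2 fold change -0.67 ± 0.11, edgeR adjusted p = 9.16e-07). Id3 (ENSMUSG00000007872.3, chr4:136143497-136145755) had 16.96 and 15.6 CPM in BML-210 libraries against 11.4 and 14.1 CPM in untreated libraries (0.36 ± 0.12, edgeR adjusted p = 0.0145). Id1 (ENSMUSG00000042745.9, chr2:152736251-152737410) had 45.2 and 47.2 CPM in BML-210 libraries against 50.9 and 52.6 CPM in untreated libraries (-0.16 ± 0.06, edgeR adjusted p = 0.0346). Within this small family Id2 fell and passed in all 14 alternatives, whereas the calls of Id3 and Id1 depend on single libraries. The call of Id3 ended without untreated replicate 1 (0.20, edgeR adjusted p = 0.297) or BML-210 replicate 1 (0.29, 0.115), in a range of 0.00215 to 0.297. That of Id1 ended without any 1 of the 4 libraries (edgeR adjusted p = 0.0530 to 0.201), with library size only (0.0581) or with no filter on low counts (0.0819), and ran from 0.0118 to 0.245 over the alternatives. Id3 made up 17.5% and 15.8% of the CPM per kilobase of Id1 to Id3 in BML-210 libraries, against 10.8% and 12.7% in untreated libraries.

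Tgfbi (ENSMUSG00000035493.10, chr13:56609523-56639562), a secreted matrix protein gene named for its induction by TGF-beta, had 68 and 61 counts in BML-210 libraries against 34 and 33 in untreated libraries. In CPM these were 5.15 and 4.35 in BML-210 libraries against 2.07 and 2.40 in untreated libraries, with no overlap (log2 fold change 1.09 ± 0.25, edgeR adjusted p = 0.000203). This was the only member called higher by 1.5-fold or more, beside 6.46% of all genes tested, and it passed in all 14 alternatives (log2 fold change 0.96 to 1.21).

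Other genes of the pathway were taken from 7 lists of 111 genes, of which 57 were tested, 19 higher and 14 lower (57.9% called, against 46.4% of all genes tested). Among 13 further SMAD2/3 target genes tested, 4 rose and 2 fell. Acta2, smooth muscle actin, had 43.7 and 39.6 CPM in BML-210 libraries against 19.96 and 19.7 CPM in untreated libraries (log2 fold change 1.07, edgeR adjusted p = 2.46e-16). Ccn1, a matricellular gene, had 50.9 and 51.7 CPM in BML-210 libraries against 89.6 and 94.5 CPM in untreated libraries (-0.84), and Bhlhe40, a transcription factor gene, had 216 and 224 CPM in BML-210 libraries against 320 and 315 CPM in untreated libraries (-0.53). The 6 calls among these 13 genes (46.2%) are near the 46.4% of all genes tested. Of 4 further BMP target genes tested, Runx2, an osteoblast transcription factor gene, rose (0.24). Atoh8, a helix-loop-helix factor gene, had 0.378 and 0.428 CPM in BML-210 libraries against 0.852 and 1.38 CPM in untreated libraries (-1.42, edgeR adjusted p = 0.0227), and it too entered the test only through the untreated libraries. Its call ended with no filter on low counts (edgeR adjusted p = 0.0532), with DESeq2 (0.183) and without untreated replicate 2, BML-210 replicate 1 or BML-210 replicate 2 (0.317, 0.143 and 0.107), in a range of 0.0196 to 0.317 over 13 alternatives.

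All 3 further extracellular antagonists tested fell, as did 23.5% of all genes tested. Nbl1 (DAN), a BMP antagonist gene, had 4.31 and 4.995 CPM in BML-210 libraries against 10.5 and 13.3 CPM in untreated libraries (-1.34, edgeR adjusted p = 1.10e-09). Chrd (chordin) had 1.82 and 2.498 CPM in BML-210 libraries against 4.38 and 4.01 CPM in untreated libraries (-0.95), and Twsg1 had a log2 fold change of -0.20. Of 5 genes of ligand activation and matrix tested, the integrin subunit gene Itgav (-0.29) and the protease gene Furin (-0.34) fell with Bmp1. Itgav and Furin both take part in freeing active TGF-beta. Lrrc32 (0.77), which holds latent TGF-beta at the cell surface, and Bgn (1.14) rose. The integrin beta subunit genes Itgb6 and Itgb8 of this list had too few counts to be tested. Itgb6 had 3 and 0 counts in BML-210 libraries against 0 and 2 in untreated libraries, and Itgb8 had 3 and 1 against 0 and 1. The call of Bgn ended without untreated replicate 1 or BML-210 replicate 1 (edgeR adjusted p = 0.162 and 0.101) and with DESeq2 (0.139, range 0.0111 to 0.162 over 14 alternatives). Of 26 SMAD adaptors, partners and regulators, 12 rose and 3 fell. These calls (57.7%) are near the 58.9% of all genes with a mean of at least 10 CPM, beside 46.4% of all genes tested. Dab2, an endocytic adaptor that binds TGF-beta receptors, had 153 and 154 CPM in BML-210 libraries against 95.5 and 92.4 CPM in untreated libraries (0.71), and the coactivator gene Crebbp rose by 0.43, while Zfyve16 (-0.53) and the ubiquitin ligase gene Nedd4l (-0.25) fell. Of 5 further receptors and coreceptors, Cd109 (-0.27), a TGF-beta coreceptor gene, and Rgmb (-0.32), a BMP coreceptor gene, fell and none rose (40% called, against 46.4% of all genes tested). The call of Rgmb ended without untreated replicate 1 (edgeR adjusted p = 0.133) and with DESeq2 (0.0758, range 0.000530 to 0.133 over 14 alternatives). Of 21 further ligands only Lefty1 was tested, and it did not pass.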

How the data were processed

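The authors deposited 1 table of raw read counts per gene beside each gene's name, position and length, per the file headers. Tools named are bcl2fastq, STAR 2.5, featureCounts of Subread 1.5.1 and edgeR 3.20.8 on mm10, per the submitters' processing notes; their strand and multi-mapping settings were not given in the sources used here. Each count column was matched to a sample by its library name.

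From these counts, edgeR 4.0.16 (R 4.3.3) gave every test: filterByExpr kept 14455 of 56350 genes, libraries were scaled by TMM, and groups of 2 were compared by glmQLFit (robust=TRUE) and glmQLFTest on the group alone, with 2 residual degrees of freedom. The Benjamini-Hochberg adjustment covered every gene tested, and calls are below 0.05. The standard error is the absolute log2 fold change over the square root of F. CPM use the TMM-scaled library size. Library totals ran from 13167893 to 16534667 counts. Reads carry no molecular identifiers, so intervals and floors cover counting error only.

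The 2 libraries of a group differed beyond counting noise (1.76 chi-square per degree of freedom for BML-210 and 2.70 for untreated) and each counts as 1 sample. On simulated data of 14159 genes tested, the fit found 49.5% of 95 genes moved by 0.5 on the log2 scale and 93.1% of 101 moved by 1, with 7 false calls among 148. The simulation gave every gene the same spread and moved few genes, whereas 46.4% of all genes tested passed in the real data. Its rates of recovery and of false calls therefore check the code and do not describe this comparison.

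The members, their roles, the other lists and the tests were chosen with earlier results of these data known. Values in each library are given for called members whose mean CPM reached 1 and for uncalled ligands, receptors and SMADs with at least 20 CPM, and up to 2 genes called higher and 2 lower with the smallest adjusted p are named from each other list; 1 gene under this rule is not reported here. Tgfb2, Tgfb3, Ltbp1, Ltbp2, Smurf2, Tgif1, Smad6, Bmp1, Twsg1, Lefty1 and the members at low counts are named outside that rule. Exon overlaps come from the deposited coordinates. Alternatives were 3 other scalings, 2 other filters, leaving out each library or the genes over 1% of a library, a block for the replicate number, robust=FALSE, DESeq2 1.42.0 and limma-voom (limma 3.58.1).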

Additional observations from a re-analysis of the deposited data

How the results depend on the processing

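No called member changed direction under any of the 14 alternatives, and 18 of 28 kept their call in each alternative that tested them. The other 10 lost it at least once, all 10 of them with DESeq2. With DESeq2, 2205 genes were called higher and 2130 lower, against 3312 and 3402 with edgeR's quasi-likelihood test, and among the members 10 were higher and 8 lower. By role, DESeq2 called 1 signalling SMAD and 1 target higher, and 0 latent TGF-beta binding proteins, 3 receptors, 0 intracellular inhibitors and 1 target lower. With library size only, 5 signalling SMADs were called higher and 1 target lower. With no filter on low counts, 3 receptors and 1 target were called lower, and a minimum mean of 1 CPM left 1 antagonist lower, since Fst was then not tested. Leaving out 1 library at a time gave 2757 to 2905 genes higher and 2861 to 2964 lower. Among the members it gave 13 to 15 higher and 9 to 11 lower. By role it gave 1 to 2 ligands, 1 to 2 targets and 2 to 5 signalling SMADs higher, and 0 to 1 latent TGF-beta binding proteins, 3 to 5 receptors, 0 to 1 intracellular inhibitors and 1 to 1 targets lower. Members that were not called changed sign in a few cases: with 1 library left out, the log2 fold change of Tgfb2 ran from -0.19 to 0.053, that of Inhbb from -0.042 to 0.12, that of Tgif1 from -0.047 to 0.0078 and that of Smad6 from -0.35 to 0.32, and Smad6 was at -0.014 with upper-quartile factors and -0.015 with limma-voom. The cause of these shifts was not tested. The median log2 fold change of all genes stayed between -0.03 and 0.03 over the scalings. Same-numbered replicates deviated from their group means with a correlation of 0.04 over 5655 genes, so the numbers were not taken to pair the samples. With the replicate number as a block, 3385 genes were called higher and 3462 lower, and among the members 16 and 14, with no call of a member lost. With 2 libraries a group and spread shared across genes, members with few counts (Fst, Bmp7, Smad6, Ltbp2) are the least certain.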
